A study of Mus musculus with 20 samples.

Results

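KNDy neurons of the arcuate nucleus (ARC) are named after the peptides they make together: kisspeptin, neurokinin B and dynorphin. The genes described here are the 7 of the 22048 counted genes whose symbols were chosen for this cell type and its steroid input. They are Kiss1, Tac2 and Pdyn (the peptide precursors), Tacr3 (the neurokinin B receptor), Esr1 and Pgr (the oestrogen and progesterone receptors) and Nr5a2 (the nuclear receptor LRH-1). RNA came from laser-captured whole ARC of male C57BL6/J mice, given as 10 weeks old in the labels, that drank corticosterone (Cort, 75 μg/ml in 1% ethanol) or vehicle (1% ethanol) for 2 days or for 4 weeks, with 5 samples per group in each dataset. The 4 week mice, still on treatment, were also fasted for 16 h and refed for 24 h before collection. The nuclei were cut from cresyl violet stained cryosections, and the RNA was amplified before sequencing. The labels do not state that each sample is a separate mouse, so p-values measure the spread between samples.

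Neurokinin B excites neighbouring KNDy neurons through its receptor NK3R, dynorphin restrains them through the kappa opioid receptor, and kisspeptin acts on gonadotropin-releasing hormone (GnRH) neurons and their terminals. Gonadal steroids act back on the same neurons through their nuclear receptors, those for oestrogen and progesterone among them. Many Esr1 and Pgr positive cells of the mediobasal hypothalamus are not KNDy neurons, Pdyn is made by other hypothalamic neurons as well, and LRH-1, which is present in arcuate kisspeptin cells, is also found elsewhere. Since the samples are whole nuclei, fewer cells of a type and less RNA per cell cannot be told apart.

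The stretches that encode neurokinin B and kisspeptin-10 are shown because they fix which transcript each name stands for, and because that of Kiss1 bears on its counts. They are coding DNA of the sense strand from the GENCODE vM21 transcripts on GRCm38, with the codons of the mature peptide in capitals and 15 bases on each side in lower case. Neurokinin B is encoded at residues 82 to 91 of the Tac2 precursor (chr10:127728464-127729160, plus strand, across an exon junction) and kisspeptin-10 at residues 106 to 115 of the Kiss1 precursor (chr1:133329565-133329624, plus strand, exon 3 of 3).
Tac2, neurokinin B: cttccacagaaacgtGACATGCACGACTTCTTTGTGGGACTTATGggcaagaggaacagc
Kiss1, kisspeptin-10: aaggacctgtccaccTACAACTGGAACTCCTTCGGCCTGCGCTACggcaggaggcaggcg
The stretch of Tac2 occurs in transcripts of 1 gene. That of Kiss1 occurs in transcripts of 3 gene identifiers, 1 for Kiss1 and 2 for the predicted gene Gm28040.

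Library totals lay between 2487063 and 5748223 counts in the 2 day dataset and between 1065776 and 5196364 in the 4 week dataset. Levels are CPM, the count scaled to the size of its library, and 3 counts, taken as the floor, correspond to 0.512 to 1.19 CPM and to 0.619 to 2.75 CPM. Following the study, Cort was compared with vehicle in 3 vehicle and 4 Cort samples per dataset, called kept here. Those the study left out are given beside them, namely vehicle C07 and C09 with Cort C08 in the first dataset, and vehicle C01 and C05 with Cort C06 in the second. Samples are numbered by their count column. The defining ARC genes Agrp, Npy and Pomc were counted in all 20 samples (at least 18.0, 48.7 and 20.2 CPM), and 5 pituitary genes summed to at most 39.5 CPM. A list of genes of other hypothalamic nuclei (Avp, Oxt, Hcrt, Pmch and Trh) was less even. At 2 days it summed to 30.1 to 105 CPM with vehicle and 71.2 to 430 CPM with Cort, highest in Cort samples C06 (430 CPM) and C08 (425 CPM). At 4 weeks it summed to at most 11.9 CPM with vehicle and 49.5 CPM with Cort. The part of such tissue in the results was not tested. In the 7 kept samples edgeR's quasi-likelihood test with Benjamini-Hochberg adjustment called 8 of 12309 genes at 2 days and 5 of 11211 at 4 weeks (Padj below 0.1), and 7 of 7 glucocorticoid-induced genes at 2 days and 6 of 7 at 4 weeks had a positive fold change with Cort. The median log2 fold change of the glucocorticoid-induced genes was 0.90 at 2 days and 1.25 at 4 weeks. Over all genes tested it was 0.02 and 0.04. This list was chosen with earlier results of these data known, so its counts are a description and not an independent check. Of the 7 headers of the deposited normalised table at 2 days, 5 carried the values of another raw count column. All values here therefore rest on the raw counts and their headers. Under the normalised headers 2 of the 7 glucocorticoid-induced genes had a positive fold change. Because of how the list was chosen, this count does not by itself decide which headers are right.

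Levels between genes are given as CPM per kilobase (kb) of exon in GENCODE vM21 on GRCm38, over all 10 samples of a dataset. At 2 days Tac2 stood first with a median of 111 CPM per kb (range 58.1 to 127), followed by Pdyn with 41.0 (19.1 to 54.2) and Pgr with 10.3 (7.21 to 12.3). These 3 ranges did not overlap. Nr5a2 (median 7.26 CPM per kb), Esr1 (5.35) and Tacr3 (4.53) came next, and each overlapped with its neighbours in this order. The 4 week order began with Tac2 (median 33.6 CPM per kb), Pdyn (16.1) and Pgr (12.2), yet every neighbouring pair overlapped, and Tac2 exceeded Pdyn in 9 of 10 samples. Kiss1 was last by this measure in both datasets, but its counts cannot be read as its level, as described below.

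**Figure D1:**
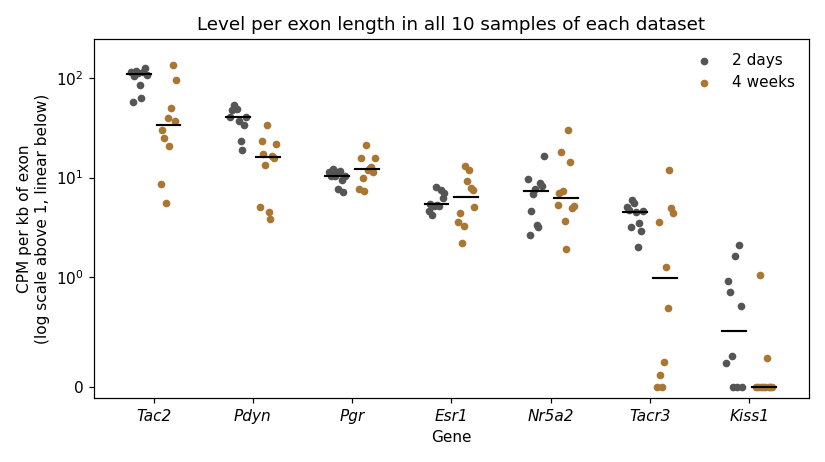
CPM per kb of exon (vertical axis, logarithmic above 1 and linear below) of each gene in all 10 samples of the 2 day (grey) and 4 week (brown) datasets, with black lines at the medians. Tac2 is highest in both, with medians of 111 and 33.6 CPM per kb. Kiss1 is lowest, but its counts cannot be read as its level.

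Kiss1 was barely counted. It had 24 counts in all at 2 days, spread over 7 of 10 samples with a highest count of 8, and 3 counts in 2 of 10 samples at 4 weeks. All 10 samples at 4 weeks and 8 of 10 at 2 days were at or below the floor, so no fold change or test is given. The identifier in the tables, ENSMUSG00000102367, is not in GENCODE vM21, where Kiss1 is ENSMUSG00000116158 (chr1:133321875-133329901, plus strand). There, 100% of its 779 exon bases and all 730 of its 50-base stretches are shared with Gm28040 or Golt1a. How the counting treated reads assigned to more than 1 gene is not given in the sources used here, and Gm28040 itself was listed at 0 in all 20 samples. The counts of Kiss1 therefore cannot be read as its level. For the other genes at most 0.336% of such stretches recurred in another gene.

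Among the 6 members that passed the filter on low counts, none passed the test at 2 days: 0 had Padj below 0.1 (background 0.065% of genes tested) and 0 had P below 0.05 (background 5.97%). At 4 weeks Tac2 and Esr1 were higher in every kept Cort sample than in any kept vehicle sample, yet neither passed Padj below 0.1. Here 0 of 6 had Padj below 0.1 (background 0.0446%), 2 of 6 had P below 0.05 (background 4.91%), and 2 of 6 had groups that did not overlap (background 6.53%, against 0 of 6 and 6.63% at 2 days). Because the members were chosen with earlier results of these data known, their shares beside the background are a description only. The median absolute log2 fold change over all genes tested was 0.26 at 2 days and 0.51 at 4 weeks.

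**Figure D2:**
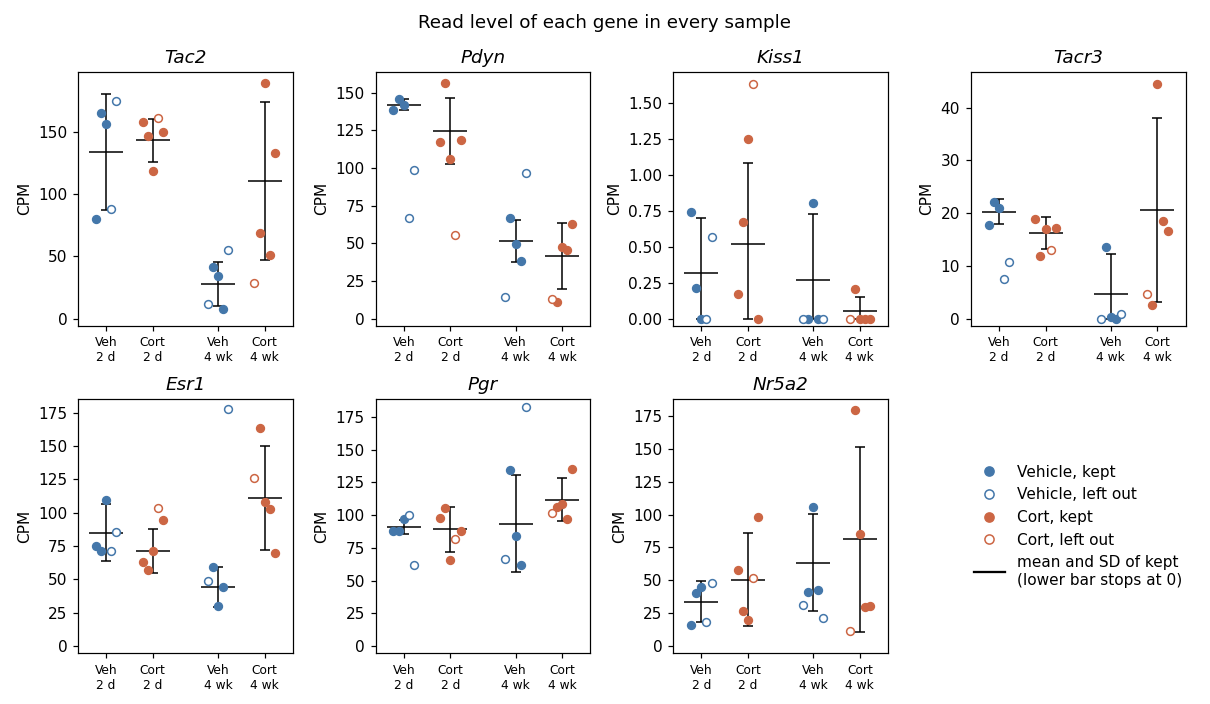
CPM of each gene (vertical axis, linear) by treatment and dataset, 1 point per sample, filled where the sample was kept and open where it was left out, with the mean and SD of the kept samples. At 4 weeks the filled Cort points of Tac2 (51.0 to 189 CPM) and Esr1 (69.5 to 163 CPM) lie above the filled vehicle points, whereas the open vehicle point of Esr1 is at 178 CPM.

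Tac2 (chr10:127724478-127731768, plus strand) encodes the neurokinin B precursor. At 2 days the kept vehicle samples had 80.1 (C02), 165 (C04) and 156 CPM (C05), and the kept Cort samples 158 (C01), 147 (C03), 118 (C06) and 150 CPM (C10). The left-out vehicle samples had 87.9 (C07) and 175 CPM (C09), and the left-out Cort sample 161 CPM (C08). The lowest and the highest values were both from vehicle samples, and the groups overlapped. The means were 134 ± 46.8 CPM (SD, n = 3) and 143 ± 17.2 CPM (SD, n = 4). With Cort over vehicle the log2 fold change was 0.10 (SE 0.22, 95% interval -0.36 to 0.56; edgeR quasi-likelihood test, Benjamini-Hochberg Padj = 0.973).

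In the 4 week dataset the kept vehicle samples had 41.6 (C02), 34.2 (C03) and 7.61 CPM (C04) of Tac2, and the kept Cort samples 68.7 (C07), 189 (C08), 51.0 (C09) and 133 CPM (C10). The left-out samples had 11.9 (C01) and 54.9 CPM (C05) with vehicle and 28.7 CPM (C06) with Cort. The kept groups did not overlap, while vehicle sample C05 exceeded Cort samples C06 and C09, and C02 and C03 exceeded C06. The kept means were 27.8 ± 17.9 CPM (SD, n = 3) and 111 ± 63.2 CPM (SD, n = 4). This gave a log2 fold change of 1.98 (SE 0.65, 95% interval 0.59 to 3.36), a 3.93-fold difference. The difference ranked 98 among 11211 genes by P and did not pass after adjustment (edgeR quasi-likelihood test, Benjamini-Hochberg Padj = 0.918). By the DESeq2 Wald test on the same samples the log2 fold change was 1.97 and did not pass either (Benjamini-Hochberg Padj = 0.184). Over all 10 samples the log2 fold change was 1.62 (95% interval 0.26 to 2.98; edgeR quasi-likelihood test, Benjamini-Hochberg Padj = 0.991), and Tac2 was then the 1 of 6 members with unadjusted P below 0.05 (background 4.9%). The exact permutation test of 5 against 5 gave p = 0.0635, where 0.00794 is the smallest it can give. Leaving out each kept sample in turn moved the log2 fold change between 1.54 and 2.4, with unadjusted P below 0.05 in 7 of 7 fits. These fits share most of their samples, and their lowest Padj was 0.752 (edgeR quasi-likelihood test, Benjamini-Hochberg, without Cort sample C07).

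Tacr3 (chr3:134829007-134934579, plus strand) encodes NK3R. At 2 days it lay between 17.7 and 22.2 CPM in the kept vehicle samples and between 11.8 and 19.0 CPM in the kept Cort samples, with 7.49 (C07), 10.8 (C09) and 13.1 CPM (C08) in those left out. The kept groups overlapped, and the log2 fold change of -0.31 (SE 0.41) did not pass the test (edgeR quasi-likelihood test, Benjamini-Hochberg Padj = 0.953). At 4 weeks its vehicle samples had 0 (C01), 13.5 (C02), 0.402 (C03), 0 (C04) and 0.839 CPM (C05), and its Cort samples 4.72 (C06), 2.68 (C07), 44.5 (C08), 18.6 (C09) and 16.6 CPM (C10). Of the vehicle samples 4 of 5 were at or below the floor, and no Cort sample was. Vehicle sample C02 exceeded Cort samples C06 and C07, so the groups overlapped. The log2 fold change in the 7 kept samples was 2.12 (95% interval -1.03 to 5.26; edgeR quasi-likelihood test, Benjamini-Hochberg Padj = 0.99), and without C02 it was 6.39, a value that rests on vehicle samples at the floor. The exact permutation test over all 10 samples gave p = 0.0317, the lowest of the 12 such tests of the 6 members in both datasets and not adjusted for their number.

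Pdyn (chr2:129686565-129699844, minus strand) encodes prodynorphin, from which dynorphin A is cut. Its lowest and highest values were 55.3 and 157 CPM in the 2 day dataset and 11.1 and 96.9 CPM in the 4 week dataset. The kept 2 day vehicle samples were close together at 142 ± 3.70 CPM (SD, n = 3) beside 125 ± 21.9 CPM (SD, n = 4) with Cort, and the 3 samples left out were the lowest of that dataset (55.3 to 98.4 CPM). The 4 week kept means were 51.7 ± 14.1 (SD, n = 3) and 41.8 ± 21.9 CPM (SD, n = 4), and left-out samples were again at or near the extremes, with 14.7 (C01) and 96.9 CPM (C05) with vehicle and 12.9 CPM (C06) with Cort. The groups overlapped in both datasets. Its log2 fold changes of -0.18 (SE 0.18) and -0.32 (SE 0.66) did not pass the test (edgeR quasi-likelihood test, Benjamini-Hochberg Padj = 0.946 and 0.992).

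Esr1 (chr10:4611593-5005614, plus strand) encodes oestrogen receptor alpha. At 2 days the kept vehicle samples had 74.6 (C02), 71.1 (C04) and 109 CPM (C05), the kept Cort samples 62.8 (C01), 57.3 (C03), 71.4 (C06) and 94.7 CPM (C10), and the groups overlapped. The samples left out had 71.3 (C07) and 85.9 CPM (C09) with vehicle and 103 CPM (C08) with Cort. The log2 fold change was -0.24 (SE 0.25; edgeR quasi-likelihood test, Benjamini-Hochberg Padj = 0.946).

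In the 4 week dataset the kept vehicle samples had 59.5 (C02), 29.8 (C03) and 43.9 CPM (C04) of Esr1, and the kept Cort samples 163 (C07), 108 (C08), 103 (C09) and 69.5 CPM (C10). The left-out samples had 48.7 (C01) and 178 CPM (C05) with vehicle and 125.9 CPM (C06) with Cort. The kept groups did not overlap, but the highest value of the dataset was from vehicle sample C05. The kept means were 44.4 ± 14.9 CPM (SD, n = 3) and 111 ± 38.8 CPM (SD, n = 4). Their log2 fold change of 1.31 (SE 0.49, 95% interval 0.27 to 2.35) ranked 182 by P and did not pass after adjustment (edgeR quasi-likelihood test, Benjamini-Hochberg Padj = 0.99). By the DESeq2 Wald test on the same samples it was 1.3 and did not pass either (Benjamini-Hochberg Padj = 0.348). Over all 10 samples it was 0.64 (95% interval -0.40 to 1.68; edgeR quasi-likelihood test, Benjamini-Hochberg Padj = 0.991), and the exact permutation test gave p = 0.103. By limma voom with quality weights on the same 10 samples it was 0.99 (Benjamini-Hochberg Padj = 0.895), with unadjusted P below 0.05. Of the 7 fits that each left out a kept sample, 5 had unadjusted P below 0.05. Their lowest Padj was 0.949 (edgeR quasi-likelihood test, Benjamini-Hochberg, without Cort sample C10).

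Pgr (chr9:8899833-8968611, plus strand), the progesterone receptor, is a textbook target gene of oestrogen receptors in the brain. It varied least of the 6 members tested: the SD of its log2 CPM over 10 samples was 0.26 at 2 days and 0.47 at 4 weeks, at percentiles 9.36 and 8.33 of all genes tested. At 2 days the kept means were 91.1 ± 5.42 (SD, n = 3) and 89.0 ± 17.2 CPM (SD, n = 4). The kept 4 week vehicle samples had 61.8 to 135 CPM, the kept Cort samples 96.9 to 136 CPM, and vehicle sample C05, which also had the most Esr1, had the highest value of 182 CPM. The groups overlapped in both datasets. The log2 fold changes were -0.03 (95% interval -0.48 to 0.43) and 0.25 (-0.63 to 1.12), and neither passed (edgeR quasi-likelihood test, Benjamini-Hochberg Padj = 0.995 and 0.99).

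Nr5a2 (chr1:136842571-136960448, minus strand) varied 6.24-fold between samples at 2 days (15.7 to 97.9 CPM) and 15.8-fold at 4 weeks (11.3 to 180 CPM). The SD of its log2 CPM was 0.83 and 1.15, at percentiles 73.8 and 50 of all genes tested. At 4 weeks Tac2 varied more (24.8-fold), and the SD of Tacr3 was at percentile 94.5. The highest values of Nr5a2 were from Cort sample C10 at 2 days and Cort sample C07 at 4 weeks, and the lowest from vehicle sample C02 and Cort sample C06. Its groups overlapped in both datasets, with kept means of 33.8 ± 15.9 and 50.5 ± 35.6 CPM (SD, n = 3 and 4) at 2 days and 63.5 ± 37.0 and 81.1 ± 70.6 CPM at 4 weeks. The log2 fold changes of 0.58 (SE 0.46) and 0.34 (SE 0.65) did not pass the test (edgeR quasi-likelihood test, Benjamini-Hochberg Padj = 0.926 and 0.99). Without Cort sample C10 the 2 day value was 0.047 and without vehicle sample C02 0.24, and without Cort sample C07 the 4 week value turned to -0.41.

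**Figure D3:**
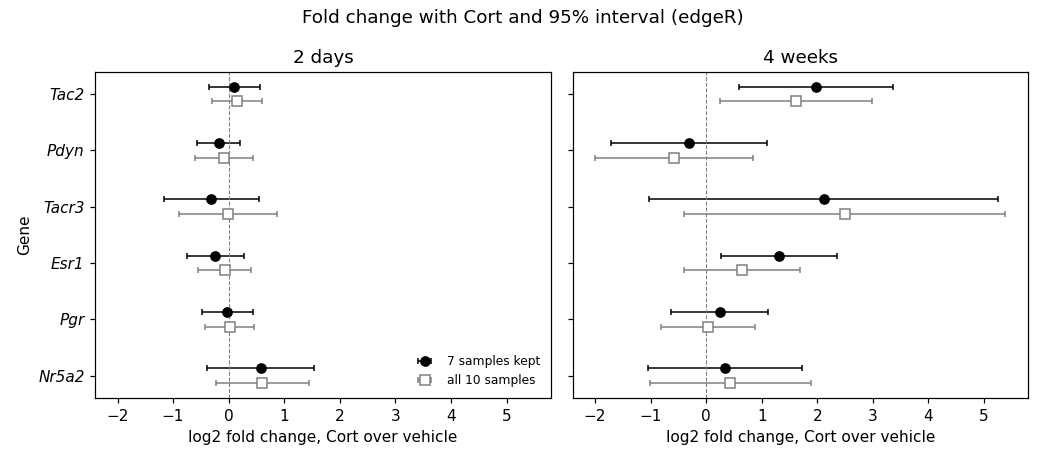
Log2 fold change of Cort over vehicle (horizontal axis) of the 6 genes tested, at 2 days (left) and 4 weeks (right), with 95% intervals from edgeR, in the 7 kept samples (filled circles) and all 10 (open squares). At 4 weeks the intervals of Tac2 lie above 0 in both sets of samples, and that of Esr1 only in the kept samples.

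The difference between the datasets was tested as an interaction over the 14 kept samples. The fold change with Cort was larger at 4 weeks for Tac2, by 1.87 on the log2 scale (95% interval 0.50 to 3.24), and for Esr1, by 1.55 (0.48 to 2.62), without passing adjustment (edgeR quasi-likelihood test, Benjamini-Hochberg Padj = 0.714 for both). These were 2 of 6 members with unadjusted P below 0.05, against 6.49% of all genes tested. Of the 6 members, 0 had Padj below 0.1 (background 0.0157%). Such shares are again a description only, since the members were chosen with earlier results known. Over all 20 samples the value of Tac2 was 1.47 (edgeR quasi-likelihood test, Benjamini-Hochberg Padj = 0.771) and that of Esr1 0.73 (Padj = 0.918 by the same test), and Tac2 was the 1 of 6 with unadjusted P below 0.05 (background 6.23%). The datasets also differ in section thickness, slides, laser system, sequencer, library totals and fasting, which cannot be told apart from treatment time. The labels give 10 weeks for every group, so whether age at collection differed with treatment time is not stated there.

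Some cell type lists differed between the kept 4 week groups. The summed CPM of a list of 5 neuronal genes (Snap25, Syt1, Rbfox3, Tubb3 and Stmn2) was 2576 to 2691 in vehicle and 2880 to 3163 in Cort samples, and that of 8 astrocyte genes 3471 to 3578 and 3922 to 5395. Snap25 made up most of the neuronal sum (means of 1991 and 2382 CPM), 3 of the 5 genes had a positive and 2 (Tubb3 and Stmn2) a negative fold change, and 0 had P below 0.05 (edgeR quasi-likelihood test). Of the 15 lists summed, 4 did not overlap at 4 weeks: these, the KNDy signalling partners described next and the glucocorticoid-induced genes. With all 10 samples, only the glucocorticoid-induced list did not overlap. In the 2 day dataset 4 of 15 did not overlap in the kept samples and 0 over all 10. The summed ventromedial hypothalamus (VMH) list overlapped (6.03 to 33.5 and 1.24 to 89.8 CPM), with its defining gene Nr5a1 at 0 in 6 of 7 kept samples, and the tanycyte list overlapped too (431 to 840 and 207 to 495 CPM). Per 1000 CPM of the neuronal list, a scale chosen after the data were seen, the kept samples had 2.95 to 15.9 with vehicle and 16.1 to 59.9 with Cort for Tac2, and 11.1 to 22.7 and 24.1 to 54.2 for Esr1. Over all 10 samples both genes overlapped on that scale, and the exact permutation test gave p = 0.0873 for Tac2 and 0.119 for Esr1. The part of neuronal and astrocyte content in these results was not tested.

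The partners of KNDy signalling, 16 genes for related peptides and for the receptors that these peptides act on, gave 0 of 12 tested with P below 0.05 at 2 days (background 5.97%) and 1 of 9 at 4 weeks (background 4.91%), with none past Padj below 0.1. The median log2 fold change of those tested was -0.16 at 2 days and 1.00 at 4 weeks, beside 0.02 and 0.04 over all genes tested. With all 10 samples the 4 week median was 0.53, with 4 positive and 3 negative values among 7 genes tested. Npffr2, a receptor for RFamide peptides, had 2.44 ± 3.49 CPM with vehicle (SD, n = 3) and 30.6 ± 30.4 CPM with Cort (SD, n = 4) at 4 weeks, a log2 fold change of 3.62 (SE 1.54; edgeR quasi-likelihood test, Benjamini-Hochberg Padj = 0.99) that over all 10 samples was not tested, since the gene did not pass the filter. Oprk1, the kappa opioid receptor that dynorphin acts on, had 49.8 ± 36.2 and 107 ± 46.5 CPM there, and passed P below 0.05 only over all 10 samples (44.5 ± 26.7 and 118 ± 46.7 CPM; log2 fold change 1.39; edgeR quasi-likelihood test, Benjamini-Hochberg Padj = 0.991). Kiss1r, the kisspeptin receptor, had at most 25.0 CPM in any 4 week sample and was not tested there.

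Of 16 genes of steroid reception, 13 were tested in each dataset. At 2 days 1 had P below 0.05 (background 5.97%), with a lower mean under Cort: Srd5a1, a 5-alpha-reductase (8.82 ± 5.91 and 2.15 ± 1.49 CPM; log2 fold change -1.98; edgeR quasi-likelihood test, Benjamini-Hochberg Padj = 0.817). At 4 weeks 2 did (background 4.91%), both lower with Cort. They were the corepressor Ncor1 (332 ± 129 and 179 ± 28.6 CPM; log2 fold change -0.90; edgeR quasi-likelihood test, Benjamini-Hochberg Padj = 0.944) and Greb1, a gene known for its induction by oestrogen (43.4 ± 7.42 and 12.4 ± 6.59 CPM; log2 fold change -1.82; edgeR quasi-likelihood test, Benjamini-Hochberg Padj = 0.99). Over all 10 samples at 4 weeks Greb1 no longer had P below 0.05 (log2 fold change -1.49), Ncor1 still did (-0.82), and so did Pgrmc2, a membrane-associated progesterone receptor component (log2 fold change -1.13; edgeR quasi-likelihood test, Benjamini-Hochberg Padj = 0.991). In the kept samples the log2 fold change of Pgrmc2 was -0.28. Its highest value was 180 CPM there and 557 CPM once the left-out samples were included. Esr2, the other oestrogen receptor, did not pass the filter in either dataset.

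Of 4 further genes of kisspeptin cells, 3 were tested in each dataset. Slc17a6, the vesicular glutamate transporter VGLUT2, had 191 ± 30.2 CPM with vehicle (SD, n = 3) and 123 ± 14.02 CPM with Cort (SD, n = 4) at 2 days, a log2 fold change of -0.62 (SE 0.17; edgeR quasi-likelihood test, Benjamini-Hochberg Padj = 0.446) and the 1 of the 3 with unadjusted P below 0.05 (background 5.97%). Over all 10 samples it was -0.40, no longer below that (edgeR quasi-likelihood test, Benjamini-Hochberg Padj = 0.974). At 4 weeks it was 0.21 (SE 0.48; edgeR quasi-likelihood test, Benjamini-Hochberg Padj = 0.992).

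Pairs of members were correlated over the 10 samples of each dataset as log2 CPM, which makes 30 relations. None had an adjusted p below 0.05. The closest were Tac2 with Tacr3 at 4 weeks (Pearson r = 0.793, permutation p = 0.00534, adjusted 0.0801; Spearman rho = 0.742, permutation p = 0.0179, adjusted 0.268) and Tac2 with Nr5a2 at 2 days (r = 0.791, permutation p = 0.00293, adjusted 0.0801; rho = 0.673, permutation p = 0.0388, adjusted 0.388). Without the 2 samples farthest from the median of Tac2, r was 0.618 and 0.582. In the other dataset the same pairs had r = 0.292 and 0.253. At 4 weeks Tacr3 was at or below the floor in 4 of 10 samples, all vehicle, so its r with Tac2 there rests partly on floor values. Tac2 and Pdyn, which KNDy neurons make together, had r = 0.105 (permutation p = 0.813, adjusted 0.939; rho = -0.0909) at 2 days and 0.324 (permutation p = 0.36, adjusted 0.809; rho = 0.321) at 4 weeks. Centred within treatment over all 10 samples, the 4 week r was 0.707 for Tac2 with Pdyn (permutation within treatment, p = 0.041, adjusted 0.246) and 0.633 for Tac2 with Tacr3 (permutation within treatment, p = 0.0653, adjusted 0.28). In the 7 kept samples, not centred, r for these pairs was 0.048 and 0.814. The highest centred values were 0.772 for Tac2 with Nr5a2 at 2 days and 0.75 for Tac2 with Pgr at 4 weeks. No centred value had an adjusted p below 0.05.

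**Figure D4:**
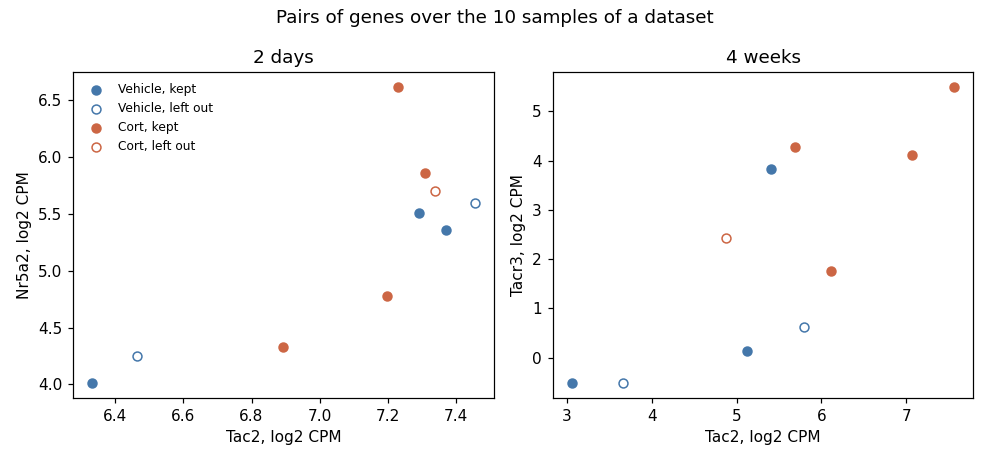
Log2 CPM of Nr5a2 against Tac2 at 2 days (left) and of Tacr3 against Tac2 at 4 weeks (right), 1 point per sample, filled where kept and open where left out, blue for vehicle and orange for Cort. Over the 10 points r is 0.791 on the left, where 2 vehicle samples with low Tac2 stand apart, and 0.793 on the right. On the right Tacr3 is at or below the floor in 4 vehicle samples.

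As a description, the genes whose log2 CPM followed each member most closely in both datasets were found among 10286 genes. For Pdyn these were Tac1 (r = 0.826 at 2 days and 0.899 at 4 weeks, 10 samples each), which encodes substance P and neurokinin A, Maneal (0.764 and 0.786) and Gad2 (0.813 and 0.762), which encodes a GABA-synthesising enzyme. For Tac2 they were Wdr31 (0.739 and 0.800), Dcp1b (0.731 and 0.742) and Anxa7 (0.676 and 0.766), with Tacr3 at rank 474. For Tacr3 they were Bach2 (0.850 and 0.813), Mkl2 (0.763 and 0.781) and Impact (0.746 and 0.722). Esr1 had Basp1 (0.775 and 0.727), Dapk1 (0.714 and 0.802) and Rpgrip1l (0.717 and 0.701), and Pgr had Glb1 (0.811 and 0.737), Arfgef1 (0.732 and 0.750) and Asb4 (0.718 and 0.751). Nr5a2 had Atf6b (0.764 and 0.759), P4hb (0.724 and 0.793) and A2m (0.685 and 0.892). No member was among the 3 closest genes of another. All 10 samples of each dataset entered these correlations, and for Pdyn the samples left out by the study lay at or near the extremes. Likeness in the kept samples alone was not computed.

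The promoters of the members (RefSeq, GRCm38.p6, windows of 300 bases around each start, 10 promoters for 7 genes) were searched on both strands for 3 motifs. None held the oestrogen response element (GGTCA and TGACC with 3 bases between), found in 0.07% of 32851 promoters, the glucocorticoid response element (GNACA and TGTNC with 3 bases between, 0.475%) or the NR5A site AAGGTCA (4.72%). With shares this low, finding none in 10 promoters says little about steroid control of the members.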

How the data were processed

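Laser-captured ARC was profiled in 5 vehicle and 5 Cort samples per dataset. The authors mapped 50-base single-end reads to GRCm38 with Rsubread, counted them with featureCounts and deposited a raw count per gene. The submitters' processing notes also name CASAVA 1.7 and DESeq2. Settings for strand and shared reads are not given in the sources used here. The signal values in the authors' deposited normalised tables are counts divided by a size factor over 7 samples. Those tables served here only for symbols and for which samples were kept, since 5 of 7 headers at 2 days carried another column's values. The authors' columns of fold changes and p-values were not used. Groups follow the column names given in the study's supplement.

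CPM were computed from raw counts with TMM scaling over 10 samples. Tests used R 4.3.3, edgeR 4.0.16 (filterByExpr, TMM, two-sided quasi-likelihood F test, Benjamini-Hochberg adjustment), with limma 3.58.1 and DESeq2 1.42.0 as alternatives, and Python 3.11.15 with scipy 1.17.1. The interaction carried dataset as covariate. Exact permutation tests are 2-sided, and 3 against 4 samples cannot go below 0.0571. Correlations used log2 CPM with a prior count of 2 and 100000 permutations. Exon lengths and sequences come from GENCODE vM21. The floor of 3 counts covers counting error only, since amplified reads are not independent molecules. Tested on simulated data with 200 changed genes, the test recovered 32.5% of 2-fold and 77% of 4-fold changes among 12309 genes at 2 days, and 0% and 23.5% among 11211 at 4 weeks. Of the genes called, 8.45% and 6.67% were wrong at 2 days, and 6% with 4-fold changes at 4 weeks. The changed genes were drawn from all genes tested, so these shares do not give the recovery for the members. List genes with P below 0.05 in either dataset are named, as are the 3 genes most like each member. The members and lists were chosen with earlier results of these data known. Alternatives were DESeq2, other scalings and filters, all 10 samples, voom with quality weights and leaving out each sample. A steroid reception gene and a coding stretch are not reported here.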

Additional observations from a re-analysis of the deposited data

Results flagged for a closer look

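Dixon's test on untransformed CPM was applied to 24 groups of 5 samples (6 members, both treatments and both datasets). In 3 of them a value was set apart from the other 4. Chance gives about 1 in 20 for normally distributed values, and whether CPM follow that distribution was not tested. All 3 were vehicle groups at 4 weeks. Esr1 was at 178 CPM in C05, a sample the study left out, and the next highest vehicle value was 59.5 CPM. Nr5a2 was at 106 CPM in C03, with the next at 43.0 CPM. Tacr3 was at 13.5 CPM in C02, with the next at 0.839 CPM, which is below the floor.

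The fold change with Cort differed between 4 weeks and 2 days at an unadjusted P below 0.05 for Tac2 (interaction log2 ratio 1.87) and Esr1 (1.55). Neither passed adjustment (edgeR quasi-likelihood test, Benjamini-Hochberg Padj = 0.714 for both), and dissection, sequencer and fasting differ between the datasets in the same way as time.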

How the results depend on the processing

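No member passed Padj below 0.1 in any alternative run, and 262 of 280 member values kept their direction. No paired analysis was possible because the count columns carry no replicate numbers of the labels. Counts of genes with Padj below 0.1 (8 at 2 days, 5 at 4 weeks, 2 for the interaction) became 54, 43 and 39 with DESeq2, 24 at 2 days and 9 at 4 weeks without the filter on low counts, 2, 1 and 0 with all samples, 4 at 2 days with voom and quality weights and 3 at 4 weeks with upper quartile scaling. Leaving out each sample gave 1 to 16, 0 to 10 and 0 to 3. Genes with P below 0.01 (183 at 2 days, 116 at 4 weeks) became 288 and 254 with DESeq2, 284 and 240 without the filter, and 108 to 219 and 82 to 120 leaving out each sample. Members with P below 0.05 (2 at 4 weeks, 2 for the interaction) became 1 and 1 with all samples, but 3 at 4 weeks with voom on the same samples (Tac2 1.89, Tacr3 4.06, Esr1 0.988). At 4 weeks leaving out each sample gave 1 to 3, with 1 without vehicle C03 or Cort C07 and 3 without vehicle C02.

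The sign turned for Pgr at 2 days with all samples (log2 fold change 0.017) and voom (0.00339), and for Nr5a2 at 4 weeks with voom (-0.299). Leaving out each sample gave Tac2 at 2 days -0.16 to 0.281, Pgr at 2 days -0.115 to 0.0979, Pdyn at 4 weeks -0.587 to 0.00142, Nr5a2 at 4 weeks -0.406 to 0.941, and interactions of -0.414 to 0.181 for Pdyn and -0.98 to 0.361 for Nr5a2. With the 2 day samples named by the normalised headers, a choice made after seeing the data, Tac2 was -0.315, Tacr3 0.0371 and Esr1 0.454, and 0 genes had Padj below 0.1. The causes were not tested. At 4 weeks Kiss1 was at or below the floor in 10 of 10 samples and Tacr3 in 4 of 10.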
